A study of Mus musculus with 2 samples.

Results

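Macrophage and granulocyte marker transcripts were examined in sorted B cells of Ccr7 knock-out mice and of wild-type mice, taken from peripheral lymph nodes. The set holds 10 genes chosen by symbol (Lyz2, Tyrobp, Adgre1, Csf1r, Cst3, C1qa, C1qb, S100a8, S100a9 and Cd68), and every gene probe carrying such a symbol, or an older one such as Emr1 for Adgre1 and Lyzs for Lyz2, was taken. This gave 14 of the 41174 distinct gene probes on the array, for 10 of 27597 named genes, and 9 of the 10 were among the 17684 genes that could be tested. The knock-out mice were of the strain B6.129P2(C)-Ccr7tm1Rfor/J and the wild-type mice were C57BL/6J, and the ages and the gate used to sort the cells are not given in the sources used here. RNA of 12 sorted samples, 6 of each genotype, was combined in pools of 3 without any culture of the cells, so that each genotype had 2 pools. Each of 2 two-colour arrays held 1 knock-out pool and 1 wild-type pool, with the knock-out in Cy5 on array 1 and in Cy3 on array 2. The array is therefore the replicate (n = 2), and its number limits the precision. The p-values hold the spread between pools together with any dye effect of a probe, but not the spread of the sorted samples within a pool.

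Macrophages engulf and digest cells and particles, and those of lymph node sinuses and medullary cords lie close to B-cell follicles. Their lysosomes hold lysozyme, cathepsins and heavily glycosylated membrane proteins, they secrete the complement starter C1q, and their survival depends on signals through the receptor for macrophage colony stimulating factor. Neutrophil granulocytes carry large amounts of the S100a8 and S100a9 proteins in their cytosol. Several of these genes are not exclusive to macrophages: Tyrobp is also used by natural killer cells, and Cst3 is made by many cell types and strongly by dendritic cells. In RNA of sorted cells, fewer cells of a type and less RNA per cell cannot be told apart.

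Each gene was read by 60-base oligonucleotide probes, most genes by 1 probe only. The letters are shown for probes of 5 genes, because each value given here stands for hybridisation to such a stretch and not for the whole transcript. They are written 5′ to 3′ as in the deposited files, with positions on mm8, and each leaves at least 1 reading frame without a stop codon. The Lyz2 probe shown is the dimmer of 2 (chr10:116686229-116686288, minus strand), and the fitted value of Lyz2 comes from the other, bright probe. The Tyrobp probe has positions spanning 1728 bases (chr7:30124392-30126119, plus strand), more than its own length. The C1qa probe (chr4:136168570-136168629) and the C1qb probe (chr4:136152739-136152798) lie on the minus strand, and the S100a8 probe on the plus strand (chr3:90755783-90755842).
Lyz2: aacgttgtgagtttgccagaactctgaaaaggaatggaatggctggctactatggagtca
Tyrobp: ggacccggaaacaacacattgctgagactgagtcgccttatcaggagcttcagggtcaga
C1qa: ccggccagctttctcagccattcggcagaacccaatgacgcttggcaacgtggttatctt
C1qb: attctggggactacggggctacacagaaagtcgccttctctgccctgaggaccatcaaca
S100a8: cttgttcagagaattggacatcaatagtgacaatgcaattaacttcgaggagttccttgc

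The arrays themselves set the limits of these values. Between 58.4% and 68.8% of gene spots were well above background in a channel by the scanner program's own flag, and no gene spot was saturated. The sorted cells carried B-cell transcripts: all 12 genes of a B-cell list were tested, 11 of them with a channel so bright that its value came from a low-gain scan and was scaled up. Among the defining B-cell genes, Cd79a had log2 ratios (knock-out over wild-type) of -0.07 and 0.41 on arrays 1 and 2, whereas Ms4a1 had 1.75 and -1.23. The Ccr7 transcript had -1.11 and -0.74, with a limma adjusted p of 0.142. No source used here says whether this probe falls within the deletion, so it is no check of the labels.

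Most of the myeloid markers were measurable in the sorted B cells of both genotypes, as were most genes on the array. A probe well above background in all 4 channels was found for 8 of the 10 members and for 16099 of the 27597 named genes. Of the 14 probes, 10 were well above background in all 4 channels, and the other 4 (S100a9, the dimmest Csf1r probe, S100a8 and the dimmer Adgre1 probe) in 3, 2, 1 and 0 channels. Negative control spots, of which each array had 153, gave the level read without a target. Their 95th percentile was 81.2 and 96.5 scanner units in the knock-out channels of arrays 1 and 2, against 94.2 and 80.3 in the wild-type channels. The Lyz2, Tyrobp and Cst3 probes exceeded every negative control spot in all 4 channels, and so did the bright Adgre1 and Csf1r probes, C1qb and Cd68. Raw signals of the 2 dyes are on different scales, so genotypes were compared only after normalization within each array, as log2 ratios.

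**Figure D1:**
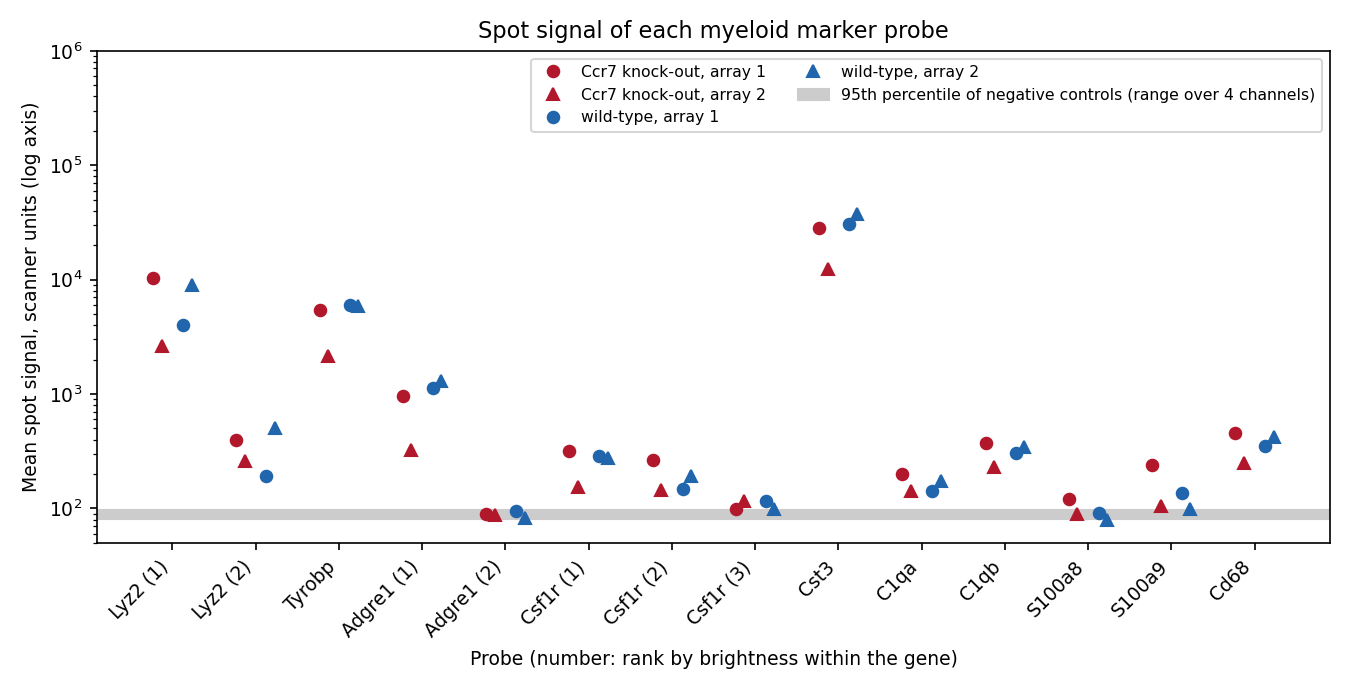
Mean spot signal of each of the 14 probes on a log axis, knock-out in red to the left and wild-type in blue to the right, array 1 as circles and array 2 as triangles, with the grey band marking the 95th percentile of negative controls from 80.3 to 96.5. The dimmer Adgre1 probe lies in the band, S100a8 lies in or near it, and the Cst3, Tyrobp and bright Lyz2 probes lie far above it.

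No member differed between the genotypes past an adjusted p of 0.05 in limma, 0 of 9 tested, while 0.102% of all genes tested did (0.0679% higher and 0.0339% lower in the knock-out). At an unadjusted p of 0.05, 3 members were lower in the knock-out (Tyrobp, Adgre1 and Cst3), where 5.97% of all genes were, and 0 were higher, where 3.15% of all genes were (9.12% in either direction). The same 3 genes were below 0 on both arrays, which 30% of all genes were. C1qa, C1qb and S100a9 were above 0 on both arrays, as were 24.2% of all genes, S100a9 with a value of 0.00 on array 2. In all, 6 of the 9 thus had the same sign on both arrays, against 54.2% of all genes. The remaining 3 genes tested (Lyz2, Csf1r and Cd68) had opposite signs on the arrays, against 45.8% of all genes. The median log2 ratio over the 9 genes was 0.25 on array 1 and -0.22 on array 2, of opposite sign. The median of the 9 genes' mean ratios was 0.16, beside -0.01 over all genes tested.

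**Figure D2:**
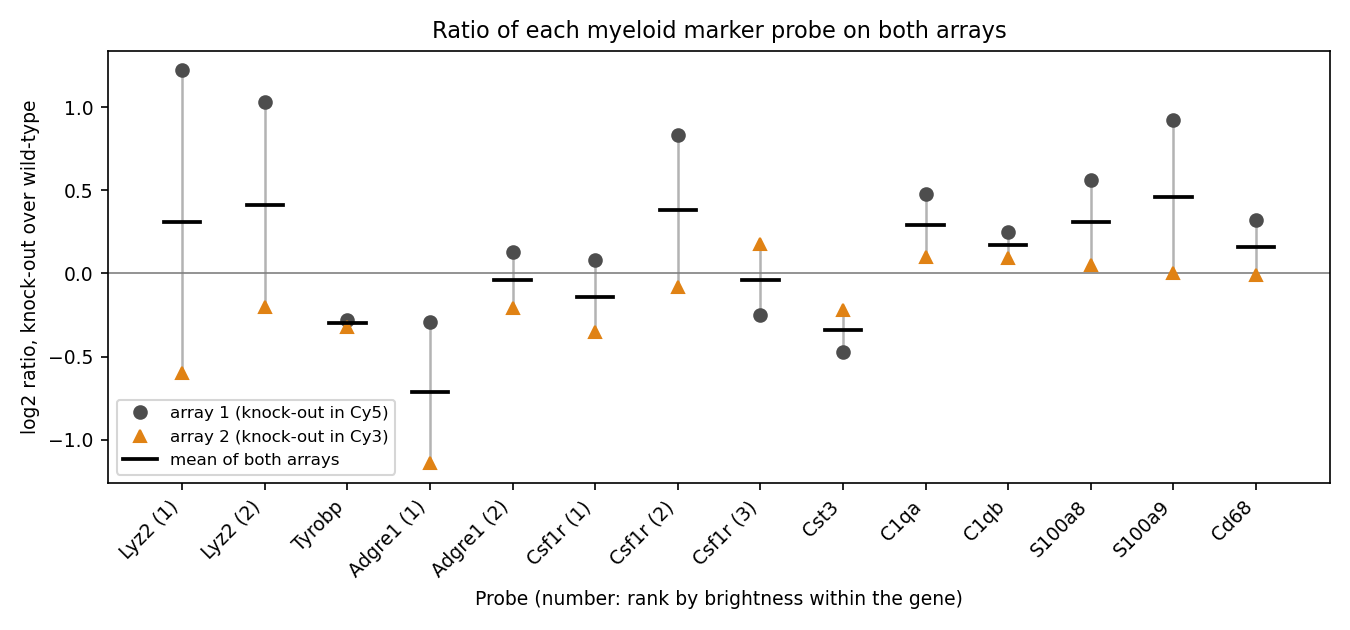
Log2 ratio (knock-out over wild-type) for each of the 14 probes on array 1 (circles) and array 2 (triangles), with their mean as a bar. Tyrobp and Cst3 lie below 0 on both arrays, with gaps of 0.03 and 0.24 between the arrays, and the bright Lyz2 probe runs from -0.60 to 1.22.

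Lyz2, the lysozyme of mouse macrophages and granulocytes that digests bacterial cell walls, gave the widest disagreement between the arrays in the set. Its bright probe (chr10:116681504-116681563) had a signal of 10372 in the knock-out and 4031 in the wild-type on array 1, and of 2607 in the knock-out and 8908 in the wild-type on array 2. The log2 ratio was 1.22 on array 1 and -0.60 on array 2, so the channel labelled with Cy5 was the higher in both cases. The mean was 0.31 ± 0.36 (SE, n = 2) with a limma adjusted p of 0.904, and a 95% interval from -0.54 to 1.17. This SE, like every SE given here, is the moderated one of limma, which is drawn towards the spread of all genes. The 2 ratios of Lyz2 themselves had an SD of 1.29, and both lie outside that interval. This gap of 1.82 between the arrays was larger than that of 99.5% of all genes tested, whose median gap was 0.20. In normalized log2 intensity the knock-out pools had 12.93 and 12.27 and the wild-type pools 11.71 and 12.87, which overlap.

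The dimmer Lyz2 probe went the same way as the bright one. It had signals of 394 in the knock-out and 192 in the wild-type on array 1, and 262 in the knock-out and 500.1 in the wild-type on array 2, with log2 ratios of 1.03 and -0.20. A probe named for the neighbouring gene Lyz1, the lysozyme of intestinal Paneth cells, also lists the Lyz2 transcript accession in the file, and it had 1.18 and -0.44. It was picked out after its values were seen. Whether the Lyz1 probe read Lyz2 RNA was not tested. A difference between the pools and an effect of the dye cannot be told apart either, since each array held other pools.

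Cst3 encodes cystatin C, a secreted inhibitor of lysosomal cysteine proteases, and it was the only member with channels scaled up from the low-gain scan, in both genotypes on array 1 and in the wild-type on array 2. Its probe (chr2:148563386-148563445) had signals of 28079 in the knock-out and 30394 in the wild-type on array 1, and 12391 in the knock-out and 37163 in the wild-type on array 2. The normalized log2 intensities were 14.29 and 14.57 in the knock-out pools, against 14.76 and 14.79 in the wild-type pools, so both knock-out pools were the lower. The log2 ratio averaged -0.34 ± 0.14 (SE, n = 2), a 1.27-fold difference, with a limma adjusted p of 0.504. Cd68, a lysosomal membrane glycoprotein of phagocytes, had a probe (chr11:69481007-69481066) with 456 in the knock-out and 353 in the wild-type on array 1, and 252 in the knock-out and 418 in the wild-type on array 2. After normalization this was a log2 ratio of 0.32 on array 1 and -0.01 on array 2, and the pools of the genotypes overlapped (8.56 and 8.48 in the knock-out, 8.24 and 8.49 in the wild-type). Its limma adjusted p was 0.853.

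Among the surface receptors and adaptors, Adgre1 showed the largest mean difference of the 9 members tested. It encodes an adhesion receptor that is a classic surface antigen of mouse macrophages. The bright probe (chr17:57168755-57168814) had signals of 962 in the knock-out and 1122 in the wild-type on array 1, and 321 in the knock-out and 1293 in the wild-type on array 2. Normalized log2 intensities were 9.62 and 8.94 in the knock-out pools, against 9.90 and 10.08 in the wild-type pools, with no overlap. The log2 ratio was -0.29 on array 1 and -1.14 on array 2, and the mean of -0.71 ± 0.20 (SE, n = 2) is a 1.64-fold lower value in the knock-out. Its limma adjusted p was 0.347, and the unadjusted p of 0.00954 placed it 484th of the 17684 genes. The gap between the arrays, 0.85, exceeded that of 97.5% of all genes. The dimmer probe was not well above background in any channel, and its ratios of 0.13 and -0.21 are between signals at the level of background.

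Tyrobp, the signalling adaptor that carries an activation motif for many receptors of myeloid and natural killer cells, had the most even ratios. Signals were 5401 in the knock-out and 5992 in the wild-type on array 1, and 2141 in the knock-out and 5906 in the wild-type on array 2. The log2 ratio was -0.28 on array 1 and -0.32 on array 2. Both knock-out pools (12.00 and 11.95 in normalized log2 intensity) lay below both wild-type pools (12.28 and 12.27). Its mean of -0.30 ± 0.13 (SE, n = 2), a 1.23-fold lower value in the knock-out, had an unadjusted p of 0.0499 and a limma adjusted p of 0.548. The 2 ratios had an SD of 0.02, and the moderated SE is larger because it is drawn towards the spread of all genes.

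Csf1r, the receptor for macrophage colony stimulating factor that macrophages need to survive, was read by 3 probes on chromosome 18 that did not go the same way. The brightest had 317 in the knock-out and 289.8 in the wild-type on array 1, and 155 in the knock-out and 277 in the wild-type on array 2, which gave log2 ratios of 0.08 and -0.35. The second probe gave 0.83 and -0.08, and the dimmest gave -0.25 and 0.18, with no channel well above background on array 1. The fitted mean of the brightest probe was -0.14 ± 0.15 (SE, n = 2) with a limma adjusted p of 0.897. With the mean of the 2 probes that passed the filter on dim probes in place of the brightest one, it was 0.12.

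The C1q chains, which together form the molecule that binds antibody complexes and dying cells and starts the classical complement pathway, were slightly above 0 for both members. The C1qa probe had 198 in the knock-out and 142 in the wild-type on array 1, and 141 in the knock-out and 175 in the wild-type on array 2. The C1qb probe had 376 in the knock-out and 306 in the wild-type on array 1, and 229.7 in the knock-out and 343 in the wild-type on array 2. In normalized log2 intensity the knock-out pools had 7.38 and 7.40 for C1qa, against 6.90 and 7.30 in the wild-type pools. For C1qb they had 8.28 and 8.29, against 8.03 and 8.20 in the wild-type pools. For each gene the pools of the genotypes did not overlap, a pattern that 9.56% of all genes had in this direction and 13.3% had in the other direction, where Tyrobp, Adgre1 and Cst3 belong. The mean log2 ratio of C1qa was 0.29 ± 0.15 (SE, n = 2) with a limma adjusted p of 0.629, and that of C1qb was 0.17 ± 0.13 (SE, n = 2) with a limma adjusted p of 0.799. The third chain, C1qc, which was picked out after its values were seen, had 0.92 on array 1 and -0.37 on array 2.

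S100a8 and S100a9, calcium-binding proteins that pair as calprotectin in neutrophils and monocytes, were close to the detection limit. The S100a9 probe (chr3:90778590-90778649) had 241 in the knock-out and 136 in the wild-type on array 1, and 105 in the knock-out and 99 in the wild-type on array 2. Both wild-type channels passed the background flag, and of the knock-out channels only that of array 1 did. Its log2 ratio was 0.92 on array 1 and 0.00 on array 2, and the mean was 0.46 ± 0.21 (SE, n = 2) with a limma adjusted p of 0.586. The mean rested on array 1, since on array 2 alone the ratio was 0.00.

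The S100a8 probe had 121 in the knock-out and 92 in the wild-type on array 1, and 90 in the knock-out and 78.9 in the wild-type on array 2. Only the knock-out channel of array 1 was well above background, and S100a8 was not among the genes tested. Of the 153 negative control spots, 1 was as bright or brighter than S100a8 in the knock-out channel of array 1 and 97 in that of array 2, against 16 and 25 in the wild-type channels. Neither wild-type channel and only 1 of the 2 knock-out channels was measured above background, so the ratios that follow measure no fold. The log2 ratios of these signals were 0.56 and 0.05. The scanner program's own log ratio, which does not add a constant to dim signals, gave 2.93 on array 1 and 0 on array 2.

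**Figure D3:**
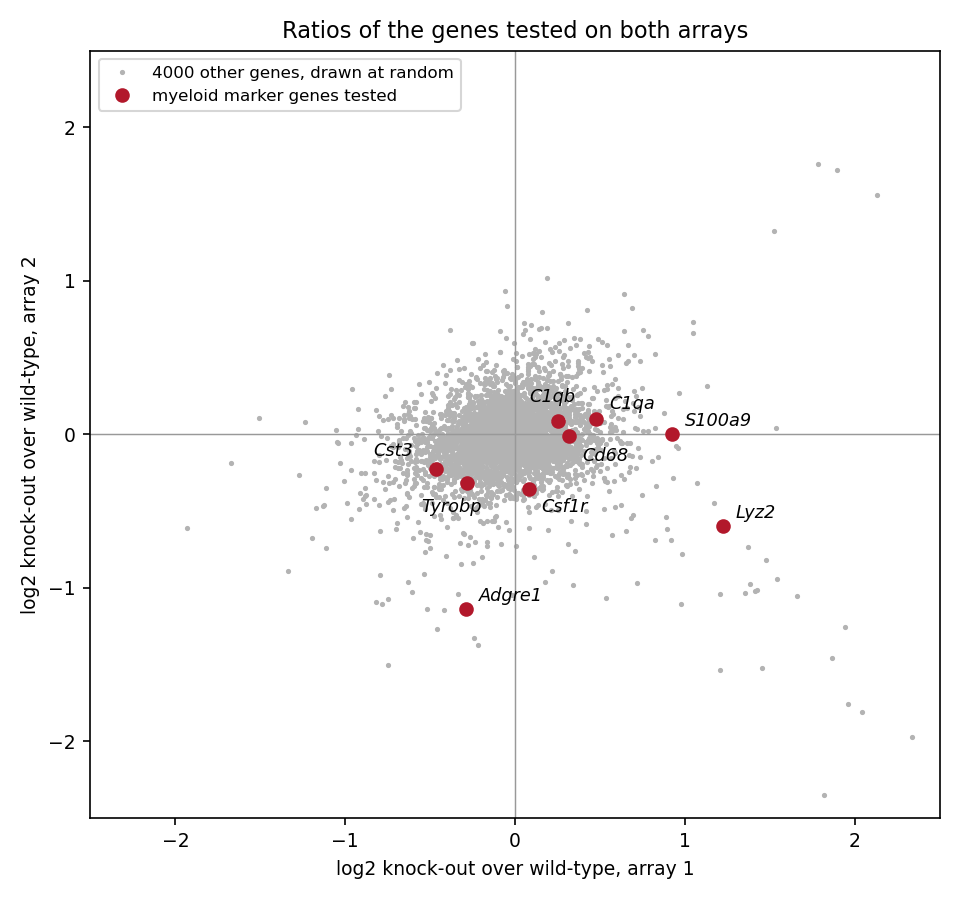
Log2 ratio (knock-out over wild-type) on array 1 (horizontal axis) and array 2 (vertical axis) for the 9 marker genes tested (red, labelled) and 4000 other genes drawn at random (grey). Tyrobp, Cst3 and Adgre1 lie in the lower left and Lyz2 in the lower right, at 1.22 and -0.60.

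**Figure D4:**
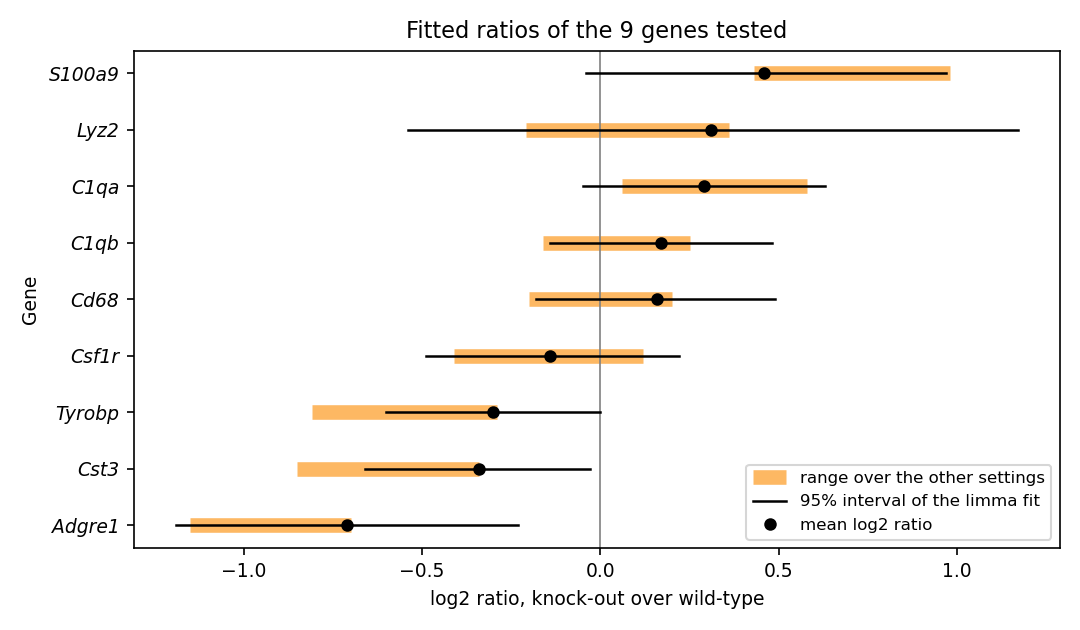
Mean log2 ratio, knock-out over wild-type (points), with the 95% interval of the limma fit (lines) for the 9 genes tested, over the range of the same value in the other processing settings (orange bars). The intervals of Adgre1 and Cst3 end below 0 and that of Tyrobp ends at a rounded 0.00, and none of the 9 genes had an adjusted p under 0.05.

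The other genes of the same cells and pathways were read from lists, in all 149 genes of which 107 were tested and 0 passed an adjusted p of 0.05 in limma. At an unadjusted p of 0.05 in limma 6 were higher and 9 lower, where 3.15% and 5.97% of all genes were. The lists were chosen with earlier results of these data known, so these counts are a description only. Over all genes, 24.2% were above and 30% below 0 on both arrays. The lowest limma adjusted p among the list genes was 0.141, for the B-cell transcription factor gene Pax5, which had a mean log2 ratio of -0.82, while the B-cell receptor partner Cd72 had 0.54. On the macrophage list, 14 of 22 genes were tested, 4 above and 2 below 0 on both arrays, with a median log2 ratio of 0.10. Genes not tested there included the sinus macrophage lectin gene Siglec1 and the scavenger receptor genes Mrc1, Msr1 and Cd163, while Marco, Cd5l, Timd4, Fcgr1 and Folr2 were among those tested. Lgals3, a galactose-binding lectin of macrophages, had -0.58 and -0.51 on the arrays, and Ms4a7, a membrane protein of macrophages, had 0.25 and 0.27. The limma adjusted p was 0.255 for Lgals3 and 0.613 for Ms4a7.

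Few granule and neutrophil genes passed the filter, which asked that 1 genotype be well above background on both arrays. Over the whole array, 17684 of 27597 named genes passed this filter. Of 22 genes on the granulocyte list 19 were matched to a probe and 7 were tested, and Ngp, Camp, Ltf, Elane, Mmp8, Cxcr2 and Csf3r were among those matched but not tested. The 7 tested were Mpo, Prtn3, Ctsg, Fpr1, Hdc, Padi4 and Pglyrp1. The median log2 ratio of the list was 0.03, with 0.15 for the peptidoglycan-binding protein gene Pglyrp1 and -0.12 for the histamine-forming enzyme gene Hdc. On the monocyte list of 8 genes 7 were matched and 3 were tested, with a median of 0.27 and the Fc receptor gene Fcgr4 at 0.27. On the dendritic cell list 8 of 12 were tested, with a median of 0.01, the chemokine receptor gene Xcr1 at 0.22 and the transcription factor gene Batf3 at -0.14.

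Partners of the members had ratios of either sign. Of 11 receptors, adaptors and the kinase that work with Tyrobp, 8 were tested, and their median log2 ratio was -0.01. Fcer1g, the sister adaptor that carries Fc receptor signals, had 0.19 and 0.51 on the arrays, and Klrd1, a receptor chain of natural killer cells, had -0.41 and -0.74. Around Csf1r, 8 of 10 ligands and regulators were tested with a median of 0.07, and the myeloid transcription factor gene Spi1 had a mean of 0.20 and the cytokine receptor gene Csf2rb -0.21. Around C1q, 8 of 11 complement genes were tested with a median of 0.03, and the complement component genes C3 and C2 had 0.42 and 0.27.

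The S100 family list included the lowest mean ratio of all list genes, that of S100a6, a calcium-binding protein of many cell types. All 10 genes of that list were tested, 1 above and 5 below 0 on both arrays, against 24.2% and 30% of all genes, with a median of -0.10. S100a6 had -1.05 on array 1 and -0.67 on array 2, a mean 1.82-fold lower in the knock-out, and S100a10 had -0.86 and -0.67. The limma adjusted p was 0.161 for both. Of 12 genes of lysosomes and cystatins, 11 were tested with a median of 0.01, the lysosomal membrane gene Lamp2 at 0.22 and the protease gene Ctsd at -0.14.

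Markers of other cells that a sort could hold were read beside the members. Of 10 T-cell genes, all tested, 6 were below 0 on both arrays and 1 above, against 30% and 24.2% of all genes, with a median of -0.24. The summed normalized intensity was 23755 and 23624 in the knock-out pools against 23584 and 24275 in the wild-type pools. Most of each sum came from Cd2 and Lck, with log2 intensities of 13.26 and 13.72 (Cd2) and 13.54 and 13.04 (Lck) in the knock-out pools. The sums therefore say little of dimmer genes such as Cd3e, at 8.63 and 8.44 in those pools. The T-cell surface gene Thy1 had a mean log2 ratio of -0.78 and the receptor chain gene Cd3d -0.60. Il7r had -0.49, Cd8a -0.39, Cd5 -0.36 and Cd2 -0.12. The remaining genes of the list had 0.03 for Cd3e, 0.01 for Cd3g, -0.03 for Cd4 and 0.16 for Lck. At an unadjusted p of 0.05 in limma, 4 of the 10 genes were lower and 0 higher, where 5.97% and 3.15% of all genes were. The genes of this list other than Thy1 and Cd3d were named with their values known. Of 6 natural killer cell genes 4 were tested, without Ncr1 and Gzma, 1 above and 2 below 0 on both arrays, with a median of -0.13. Their list had summed intensities of 1325 and 1012 in the knock-out pools against 1110.1 and 972 in the wild-type pools, and the transcription factor gene Tbx21 had a mean log2 ratio of 0.57 and Klrd1 of -0.57. Tbx21, with log2 intensities of 9.71 and 9.27 in the knock-out pools, made the largest part of these sums. Which cells of the sort made the RNA of Cd2, Lck and Tbx21 was not tested. Of 8 stroma and endothelium genes 7 were tested, with a median of 0.09, and the collagen gene Col1a2 had 0.39. For the stromal chemokine gene Cxcl12 neither wild-type channel was well above background. No fold is given for Cxcl12, and it passed the filter only through the knock-out, so its test is no support for a difference. Whether other cells in the sort had a part in the ratios of Tyrobp, Adgre1 and Cst3 was not tested.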

How the data were processed

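The deposited intensity values are those of the scanner, not yet normalized. Agilent Feature Extraction 9.5.3.1 quantified both arrays, per the submitters' processing notes, and probe positions are on mm8, per the file headers. Beside them stands a deposited log10 ratio, Cy5 over Cy3, that the program background-subtracted and dye-normalized, and a p-value for each spot that per the file headers comes from the program and was not used here. The deposited value table holds log2 ratios, which equalled the turned scanner ratio within 0.001 at 42512 and 42515 of 43379 gene spots on arrays 1 and 2.

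From the mean signal and local background, ratios were made with normexp (offset 50, which shrinks ratios of dim probes towards 0) and loess (span 0.3, 4 iterations, weight 0 for the 1639 control spots), using limma 3.58.1 and R 4.3.3. Outlier spots flagged by the program were left out and spots of a probe averaged. A probe was tested where the knock-out or the wild-type was well above background on both arrays, with 1 probe per gene, the brightest. The design was +1 or -1 by dye orientation, fitted with lmFit and eBayes (1 residual and 6.19 prior degrees of freedom), two-sided, with Benjamini-Hochberg adjustment over all 17684 genes. This design had no term for a dye effect of a probe. Levels per pool came from loess followed by Aquantile and can carry dye bias. Probes were named by RefSeq accession (24375), symbol (6301) or synonym (2426), and 8072 kept the file's name.

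The members and lists were chosen with earlier results of these data known. The text names all members, Ccr7, Cd79a, Ms4a1, and from each list any gene past the threshold and the 2 largest mean ratios of like sign on both arrays. A few other list genes are named beside these, outside that rule and with their values known. A further B-cell gene chosen by name with Cd79a and Ms4a1 is not reported here. Tested on simulated data of 2 arrays, the fit made false calls more often than an adjusted p of 0.05 allows, so counts of calls over all genes and lists may be too high.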

Additional observations from a re-analysis of the deposited data

How the results depend on the processing

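With 2 arrays and dim probes, signal over background limits S100a8, S100a9 and the dimmest probes, and no library can be left out and still be tested. The count of members past the threshold was 0 in all 12 other settings run. The count over all genes, 18, was 0 in 6 settings: raw signals with no background subtraction, the log ratio of the scanner program, the deposited value table, the mean of a gene's probes, no within-array normalization, and channels fitted separately (no replicate block for the array). It was 4 with median centring, 9 where both genotypes had to be above background on each array, 78 with an intensity trend and robust prior, and 98 without scaled-up genes. Among list genes the count of 0 became 4 with the trend and robust prior (S100a6, Thy1, Pax5 and Cxcl12, the last having passed the filter only through the knock-out) and 2 without scaled-up genes (S100a6 and Thy1). Tyrobp, Adgre1, Cst3, C1qa and S100a9 kept their direction in each setting that gave a value. The mean of Tyrobp ran from -0.81 to -0.29, of Adgre1 from -1.15 to -0.70 (adjusted p 0.121 to 1), of Cst3 from -0.85 to -0.34, of C1qa from 0.06 to 0.58 and of S100a9 from 0.43 to 0.98. S100a8 had 1.46 with the scanner program's log ratio and with the deposited table. Neither of its wild-type channels was well above background, so this value measures no fold. Median centring and no within-array normalization moved the median of all genes to -0.17 and -0.39. With no within-array normalization the sign turned for Lyz2 (-0.21), C1qb (-0.16), Cd68 (-0.20), Ms4a7 (-0.01), Fcer1g (-0.16), C3 (0.00), Pglyrp1 (-0.37), Xcr1 (-0.24), Spi1 (-0.23), Lamp2 (-0.29), Cd79a (-0.36) and Ms4a1 (-0.25). With median centring it turned for Pglyrp1 (-0.15), Xcr1 (-0.02), Spi1 (-0.01), Lamp2 (-0.07), Cd79a (-0.14) and Ms4a1 (-0.03). Csf1r turned to 0.12 with the mean of its 2 probes that passed the filter, since these had means of -0.14 and 0.38. Why the other signs turned with the changed normalization was not tested.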
